A study of Mus musculus with 6 samples.

Results

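LincRNA-EPS, listed in the count table under its annotation symbol *Ttc39aos1*, is the transcript deleted in the knockout (KO) cells of this experiment. It was examined together with 6 protein-coding genes of the same stretch of mouse chromosome 4, *Ttc39a*, *Rnf11*, *Eps15*, *Faf1*, *Osbpl9* and *Txndc12*. These 7 genes, of 57180 in the table, were chosen by symbol as the targeted transcript, the gene that starts beside it and genes of the surroundings, with their difference between genotypes already known. The values that set KO against wildtype (WT) are therefore given below as a description without a test. Single-gene p-values are given only for the other genes of the region, which were taken by position.

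RNA was sequenced from bone marrow-derived macrophages of lincRNA-EPS knockout mice and of wildtype C57BL/6 mice, with 3 libraries per genotype that the submitters describe as biologically independent. All 6 cultures received 40 ng/ml of macrophage colony-stimulating factor (M-CSF) for 24 h and then 40 ng/ml of the osteoclast inducer RANKL for 48 h, so that both groups consisted of RANKL-primed osteoclast precursors (OCPs). None of them received lipopolysaccharide. The KO mice carry the deletion on both alleles, no cell type-specific driver is named for it, and its boundaries on the chromosome are not given in the sources used here. Nor are the sex and age of the mice from which these cultures were made.

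Long noncoding RNAs are transcribed and spliced like messenger RNAs but are not translated. LincRNA-EPS was named as an erythroid prosurvival transcript and is known in macrophages as a nuclear RNA that restrains the transcription of immune genes. A noncoding RNA that starts close to the start of a protein-coding gene on the opposite strand shares its upstream region with that gene. For this reason the expression of the neighbour is commonly looked at when such an RNA is deleted. The name *Eps15* refers to a substrate of the epidermal growth factor receptor pathway and has no relation to the EPS of lincRNA-EPS.

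In the GENCODE annotation of the GRCm38 build, lincRNA-EPS occupies chr4:109403794-109406155 on the minus strand, with 2 transcripts of 2 to 4 exons. *Ttc39a*, which encodes a tetratricopeptide repeat protein of little-known function, occupies chr4:109406623-109444745 on the plus strand. The 2 genes are arranged head to head, are separated by 467 bases and share 0 exonic bases. *Ttc39a* has 8 annotated transcripts, whose start sites lie 468, 932, 955, 974, 8621, 9493, 9619 and 14787 bases from the 5′ end of lincRNA-EPS. The counts are given per gene and do not tell these start sites apart. On the side of the lincRNA-EPS 3′ end, *Eps15* lies 15.98 kb away, *Osbpl9* 201.5 kb and *Txndc12* 541.7 kb. Beyond *Ttc39a*, *Rnf11* lies 44.94 kb and *Faf1* 270.4 kb from lincRNA-EPS. *Rnf11* and *Osbpl9* are on the minus strand and *Eps15*, *Faf1* and *Txndc12* on the plus strand. *Osbpl9* shares 633 exonic bases with the nardilysin gene *Nrdc* on the opposite strand, and none of the other members shares exonic bases with another gene. The submitters' processing notes name GRCm39, whereas all positions here are on GRCm38, the build of the annotation used, because the count table holds no coordinates.

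The primers used in the study for lincRNA-EPS show which part of the transcript its qRT-PCR detects, and they are given 5′ to 3′.
forward: atgtgtattagagttttgcct
reverse: tcttttcaagcccatatgtga
Both lie within exon 1, which is 430 bases long, of the annotated transcript ENSMUST00000150239. The forward primer covers bases 111 to 131 of it and the reverse primer bases 345 to 365, with base 1 at the 5′ end, and they enclose a product of 255 bases. The sequencing counts cover the whole gene and not this product alone.

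The promoters of lincRNA-EPS, *Ttc39a* and *Faf1* are shown because the first is the deleted transcript and the other two have the lowest and the highest content of CpG dinucleotides among the members with a promoter sequence. Each is the RefSeq window of GRCm38.p6 from 250 bases before to 50 bases after an annotated start, written 5′ to 3′ on the strand of the gene with every CpG in capitals. The lincRNA-EPS window is chr4:109406208-109406507 on the minus strand, the *Ttc39a* window is chr4:109415397-109415696 on the plus strand, and the *Faf1* window is chr4:109676377-109676676 on the plus strand.
lincRNA-EPS promoter: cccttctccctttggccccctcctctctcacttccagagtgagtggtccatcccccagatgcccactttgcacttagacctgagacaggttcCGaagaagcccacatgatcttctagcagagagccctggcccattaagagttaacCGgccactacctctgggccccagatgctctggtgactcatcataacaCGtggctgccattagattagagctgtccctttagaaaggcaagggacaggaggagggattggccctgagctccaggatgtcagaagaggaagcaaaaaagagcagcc
Ttc39a promoter: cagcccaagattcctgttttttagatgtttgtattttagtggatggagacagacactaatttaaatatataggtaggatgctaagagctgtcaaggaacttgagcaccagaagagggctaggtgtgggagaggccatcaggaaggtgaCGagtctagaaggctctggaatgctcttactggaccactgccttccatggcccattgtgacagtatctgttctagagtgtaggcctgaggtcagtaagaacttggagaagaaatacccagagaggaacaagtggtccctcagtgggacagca
Faf1 promoter: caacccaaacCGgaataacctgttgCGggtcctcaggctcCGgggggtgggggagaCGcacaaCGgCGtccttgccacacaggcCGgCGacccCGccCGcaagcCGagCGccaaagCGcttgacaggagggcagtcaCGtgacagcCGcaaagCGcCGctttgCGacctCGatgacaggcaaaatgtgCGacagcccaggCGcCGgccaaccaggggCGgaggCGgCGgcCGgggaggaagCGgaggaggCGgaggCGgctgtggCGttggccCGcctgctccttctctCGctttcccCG
The lincRNA-EPS window held 3 CpG dinucleotides, and 23.3% of the 32851 mouse promoters of the same length held fewer. The *Ttc39a* window held 1, with 5.43% of promoters holding fewer, and the *Faf1* window held 33, with 91.4% holding fewer. The median over all promoters was 7. The remaining members with an entry were *Eps15* with 2 CpG, *Txndc12* with 12 and *Osbpl9* with 17 and 26 at its 2 starts, so that 6 of the 7 genes were matched. The *Ttc39a* entry belongs to one of its downstream start sites and not to the group of starts beside lincRNA-EPS, and the *Eps15* entry lies inside the annotated gene. The RefSeq start of lincRNA-EPS lies 102 bases upstream of the GENCODE 5′ end from which all other distances here are counted, so that its whole window, the matches below included, is upstream of the GENCODE gene.

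Matches to 6 short motifs were searched on both strands of the promoter windows, and the motifs were picked with the sequences in view. The lincRNA-EPS window held an AP-1 match (TGANTCA) at bases -72 to -66 from the RefSeq start, an E-box (CACGTG) at -59 to -54 and a PU.1-type match (GAGGAAG) at 29 to 35. AP-1 and PU.1 are transcription factors of macrophages and osteoclasts. The AP-1 letters occurred in 7.81% of all promoters, the E-box in 7.15% and the PU.1 letters in 13.6%. The *Ttc39a* window held none of the motifs searched, which also included AGATAA for GATA factors, found in 11.2% of promoters, GGAAAA for NFAT, found in 23.4%, and TATAAA for the TATA box, found in 13.6%. The E-box and the PU.1 letters were also found in the *Faf1* window, and the PU.1 letters in that of *Eps15*. These matches describe letters in a window and no binding was measured.

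Each library held between 17757351 and 19998611 counts, and values are given as counts or as CPM, the counts of a gene per 1000000 counts of the library, after scaling for library composition. Macrophage markers summed to 16645 to 17796 CPM in the WT libraries and 15000 to 17841 CPM in the KO libraries. *Lyz2* made up most of this sum, with means of 13303 CPM in WT and 12882 CPM in KO. Every macrophage marker had a lower mean in KO, such as *Csf1r* (1040 CPM in WT, 863 in KO) and, least, *Cd68* (1095 and 1092 CPM). Markers of osteoclast precursors summed to 5234 to 5657 CPM in WT and 6967 to 7390 CPM in KO. All of them but *Tnfrsf11a* and *Itgb3* had a higher mean in KO. Of 10 erythroid markers, the globin gene *Hbb-bt* and the anion exchanger gene *Slc4a1* were at 0 in every library, and the whole list summed to 1.05 to 1.81 CPM in WT and 0.764 to 1.21 CPM in KO. Neutrophil markers summed to 1681 to 2024 CPM in KO and 1256 to 1416 CPM in WT. The mean was higher in KO for 7 of the 10, with *S100a8*, *S100a9* and *Ngp* making up most of the sum's difference, and lower for *Mpo*, *Elane* and *Ly6g*. Markers of T cells (5.19 to 7.39 CPM over both genotypes), B cells (6.56 to 9.20 CPM) and stromal cells (21.2 to 32.5 CPM) overlapped between genotypes. *Cd4* made up most of the T cell sum, with means of 6.18 CPM in WT and 5.43 CPM in KO. Epithelial markers summed to 1.04 to 1.84 CPM in WT and 2.19 to 2.36 CPM in KO, with *Krt8* and *Cldn4* at 0. The part of these marker differences in the values below was not tested. In such bulk samples, fewer cells of a type and less RNA per cell cannot be told apart.

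The WT libraries held 20, 37 and 41 counts of lincRNA-EPS (replicates 1, 2 and 3 in this order, here and below), whereas each of the KO libraries held 0. The transcript was therefore detected in every WT library and in no KO library, as the genotype labels say. In CPM, the WT libraries held 1.00, 2.03 and 2.15, with a mean of 1.73 ± 0.630 (SD, n = 3). A floor of 3 counts per library was set for a count of 0, which corresponds to between 0.153 and 0.173 CPM in the KO libraries. The WT mean was 10.01-fold the highest of these floors. The exact Poisson interval of a count of 0, which is 2-sided, ends somewhat higher, at 3.69 counts or between 0.188 and 0.212 CPM, and so gives a smaller fold. The depth sets these limits, as all 3 WT libraries together held 98 counts of the gene among 57009968. Replicate 1 was the lowest of the WT libraries. Its 95% Poisson interval, 12.2 to 30.9 counts, overlapped those of replicate 2 (26.1 to 51.0) and of replicate 3 (29.4 to 55.6). The spread among WT libraries was 36.5% of the mean, where counting error alone gives 17.5%. These intervals and floors cover counting error only.

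*Ttc39a* had 45, 57 and 47 counts in the WT libraries and 11, 13 and 10 counts in the KO libraries. In CPM this was 2.26, 3.12 and 2.47 in WT and 0.573, 0.748 and 0.509 in KO. All KO libraries were below all WT libraries, and the lowest WT library exceeded the highest KO library 3.02-fold. The means were 2.61 ± 0.450 CPM in WT and 0.610 ± 0.123 CPM in KO (SD, n = 3 each), a 4.29-fold lower level in KO and a difference of -2.09 on the log2 scale (SE 0.27). *Ttc39a* thus remained detected in all 3 KO libraries, unlike lincRNA-EPS. The Poisson intervals of the WT libraries began at 1.65 CPM or above and those of the KO libraries ended at 1.28 CPM or below. The spread among WT libraries, 17.2% of the mean, was close to the 14.2% given by counting error, and in KO the spread of 20.2% was below the 29.7% of counting error. Of the 13428 genes that passed the filter on low counts, 7 had a lower log2 difference than *Ttc39a*, lincRNA-EPS included. Among these, lincRNA-EPS and *Zxda* were at 0 CPM in KO, so that their fitted log2 values are not measured folds.

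**Figure D1:**
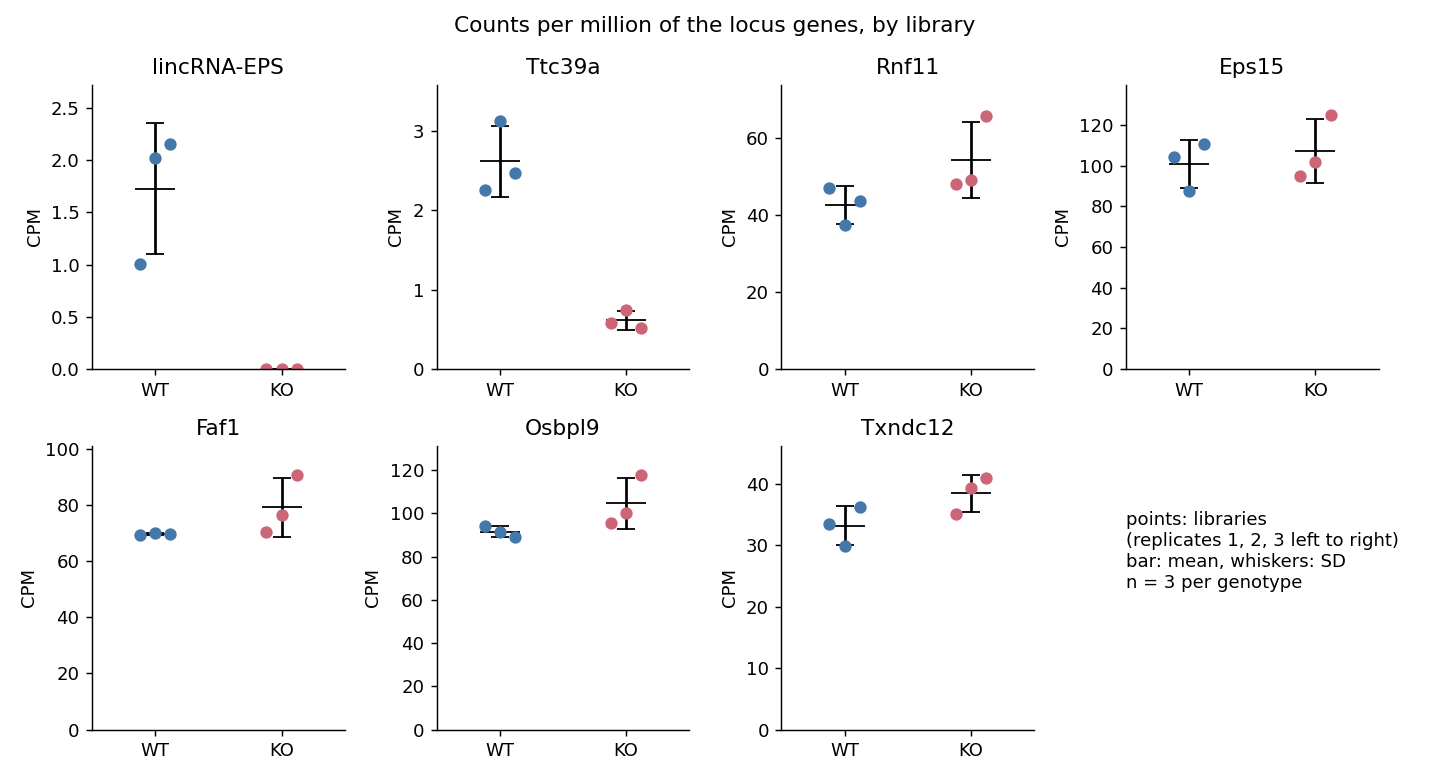
Level of each of the 7 genes in CPM (vertical axes, each from 0) by genotype (horizontal axes), with points for libraries, a bar for the mean and whiskers for the SD (n = 3 per genotype). LincRNA-EPS was at 0 in all KO libraries, *Ttc39a* lay between 0.509 and 0.748 CPM in KO against 2.26 to 3.12 CPM in WT, and KO replicate 3 was the highest library for the other 5 genes.

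The 5 other genes of the locus were expressed at much higher levels and differed far less between genotypes. *Rnf11* encodes a RING-finger protein of the ubiquitin-editing complex around A20, which limits NF-κB signalling. It had 47.1, 37.3 and 43.6 CPM in WT and 48.1, 49.1 and 65.7 CPM in KO. The KO libraries were all above the WT libraries, but the nearest libraries differed only 1.02-fold, and KO replicate 3 stood above the other KO libraries. The means were 42.7 ± 4.94 CPM and 54.3 ± 9.90 CPM, a difference of 0.35 on the log2 scale (SE 0.15). The spread of 11.6% in WT and 18.2% in KO was well above the counting error of 3.50% and 3.13%.

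*Eps15*, an adaptor of clathrin-mediated endocytosis, had 104.1, 87.6 and 110.6 CPM in WT and 94.8, 101.6 and 125.2 CPM in KO. The genotypes overlapped, with WT replicate 2 lowest and KO replicate 3 highest of the 6 libraries. The means were 100.8 ± 11.9 CPM and 107.2 ± 15.9 CPM, a difference of 0.089 on the log2 scale (SE 0.13), which is within the spread between replicates.

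*Faf1* encodes the Fas-associated factor 1, an adaptor of the ubiquitin-dependent segregase p97. Its WT libraries lay close together at 69.2, 70.1 and 69.6 CPM, and the KO libraries held 70.3, 76.4 and 90.7 CPM. The WT spread of 0.655% was below the counting error of 2.74%. The genotypes did not overlap, although the nearest libraries differed by a factor of only 1.002, and the difference was 0.18 on the log2 scale (SE 0.11).

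*Osbpl9*, whose product ORP9 transfers lipids between membranes, had 94.4, 91.4 and 89.1 CPM in WT and 95.5, 100.4 and 117.9 CPM in KO. The KO libraries were above the WT libraries, with KO replicate 3 again the highest, and the difference was 0.19 on the log2 scale (SE 0.10). It was the only member with fractional counts, between 1669.8 and 2315.68 per library. Reads in the bases it shares with *Nrdc* may be divided between the 2 genes, since the strand setting of the counting is not given.

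*Txndc12*, a thioredoxin-like oxidoreductase of the endoplasmic reticulum, had 33.5, 29.9 and 36.3 CPM in WT and 35.1, 39.3 and 40.9 CPM in KO. The lowest KO library lay below the highest WT library. The means were 33.2 ± 3.20 CPM and 38.4 ± 2.995 CPM, a difference of 0.21 on the log2 scale (SE 0.11).

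Of the 7 members, 5 had a higher mean in KO and 2 a lower one, and the median of their log2 differences was 0.18, beside a median of 0.0091 over all genes tested. The libraries of WT and KO did not overlap for 5 members, namely lincRNA-EPS, *Ttc39a*, *Rnf11*, *Faf1* and *Osbpl9*, where 35.7% of all tested genes had libraries that did not overlap. Members past the limits used here for single genes, an edgeR adjusted p under 0.01 with a fold change above 1.3, were 0 of 7, where 0.00745% of tested genes were past them, a single gene, *Dtx3l*, on another chromosome. In DESeq2, where 1.22% of the 10357 genes with an adjusted p were past the limits, 0 of 7 members were, but lincRNA-EPS and *Ttc39a* received no adjusted p. Without the independent filtering of DESeq2 these 2 members were past the limits, as were 0.355% of 24756 genes. All 7 members passed the filter on low counts, lincRNA-EPS and *Ttc39a* through their WT level. As the members were selected on this contrast, nothing is read from these counts.

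Levels of different genes were compared per kilobase of the longest annotated transcript. In WT, the order from high to low was *Osbpl9* with 29.2 ± 0.841 CPM per kb, *Txndc12* with 24.4 ± 2.35, *Eps15* with 19.4 ± 2.29, *Faf1* with 15.6 ± 0.102 and *Rnf11* with 10.5 ± 1.22, followed by lincRNA-EPS with 2.17 ± 0.791 and *Ttc39a* with 1.11 ± 0.191 CPM per kb (SD, n = 3). Only the last 2 neighbours in this order had overlapping libraries, from 1.26 to 2.70 CPM per kb for lincRNA-EPS and from 0.958 to 1.32 for *Ttc39a*. The head-to-head pair thus held the lowest levels among the 7 members, and of all tested genes with a length, 27.3% were lower per kb than lincRNA-EPS and 18.7% lower than *Ttc39a*. For *Osbpl9* the corresponding share was 82.7%. In KO, *Ttc39a* was at 0.259 ± 0.0524 CPM per kb and the means of the other 5 coding genes kept their order. In KO, however, the libraries of *Eps15* overlapped those of *Faf1*, and those of *Faf1* overlapped those of *Rnf11*. Among the 11720 long noncoding RNA genes of the table, 3735 had a count in a WT library, and 421 had a higher WT mean CPM than lincRNA-EPS, which is not a comparison per length.

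**Figure D2:**
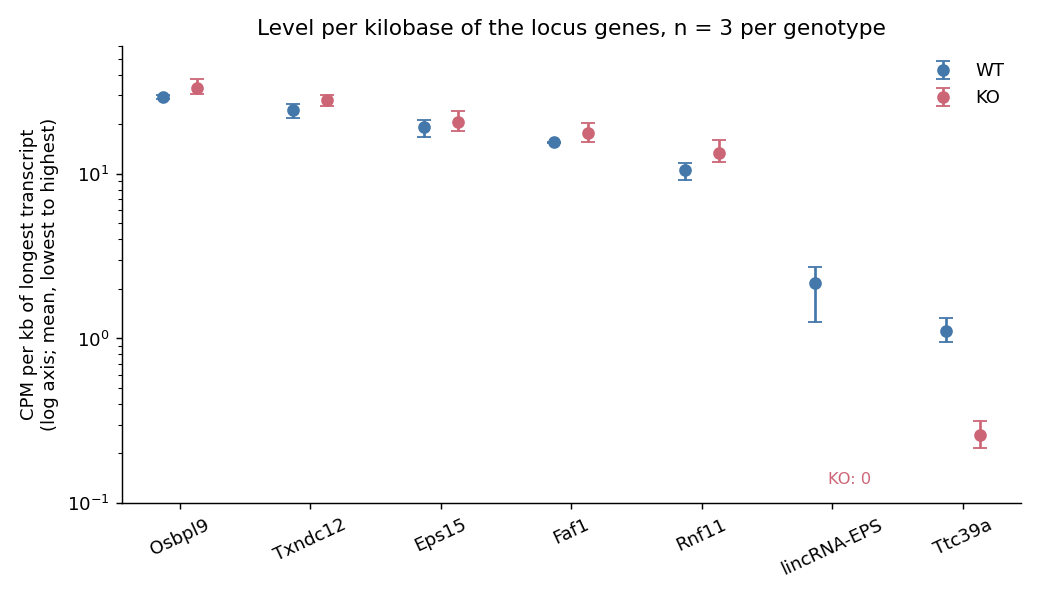
CPM per kilobase of the longest annotated transcript on a log axis, by gene and in the order of the WT means, with points for the mean of 3 libraries and whiskers from the lowest to the highest library. LincRNA-EPS (2.17 in WT, 0 in KO) and *Ttc39a* (1.11 in WT, 0.259 in KO) lay below the other 5 genes in both genotypes.

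The other genes around the locus were taken by position, to ask how far from the deletion a difference between genotypes was found. Within 1 Mb on either side of lincRNA-EPS the table holds 36 further genes, of which 11 passed the filter on low counts, and 0 of these 11 were past the limits in edgeR's quasi-likelihood test, nor were any in DESeq2. At an unadjusted p under 0.05 there were 5 of 11 (45.5%), against 26.2% of all genes tested. On the side of *Rnf11* and *Faf1*, only *Cdkn2c* was tested, which encodes the cell cycle inhibitor p18. It was at 52.6 ± 5.60 CPM in WT and 40.3 ± 2.61 CPM in KO, a difference of -0.38 on the log2 scale (SE 0.11, unadjusted p = 0.00731, edgeR adjusted p = 0.147). On the other side, the nearest tested genes were *Nrdc*, with 0.12 (SE 0.097, edgeR adjusted p = 0.427), and *Kti12*, with -0.23 (SE 0.11, edgeR adjusted p = 0.220).

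The further neighbours at an unadjusted p under 0.05 lay between 570.2 and 824.5 kb away. *Btf3l4*, related to a basal transcription factor, was higher in KO by 0.47 on the log2 scale (SE 0.13, unadjusted p = 0.00675). *Prpf38a*, a factor of the spliceosome, was higher by 0.42 (SE 0.15, unadjusted p = 0.0229), and *Zfyve9*, an endosomal anchor of SMAD proteins, by 0.33 (SE 0.14, unadjusted p = 0.0400). *Cc2d1b*, which binds the membrane-remodelling ESCRT machinery, was lower in KO, with a difference of -0.28 (SE 0.10, unadjusted p = 0.0214). The lowest edgeR adjusted p among the 11 was 0.147. Over the 11 genes, 8 were higher and 3 lower in KO, with a median of 0.15, and none of them differed by as much as *Ttc39a*. Within 5 Mb, 11 of 39 tested genes (28.2%) had an unadjusted p under 0.05, and on the whole of chromosome 4 it was 212 of 772 (27.5%). These shares lie near the 26.2% of all genes.

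**Figure D3:**
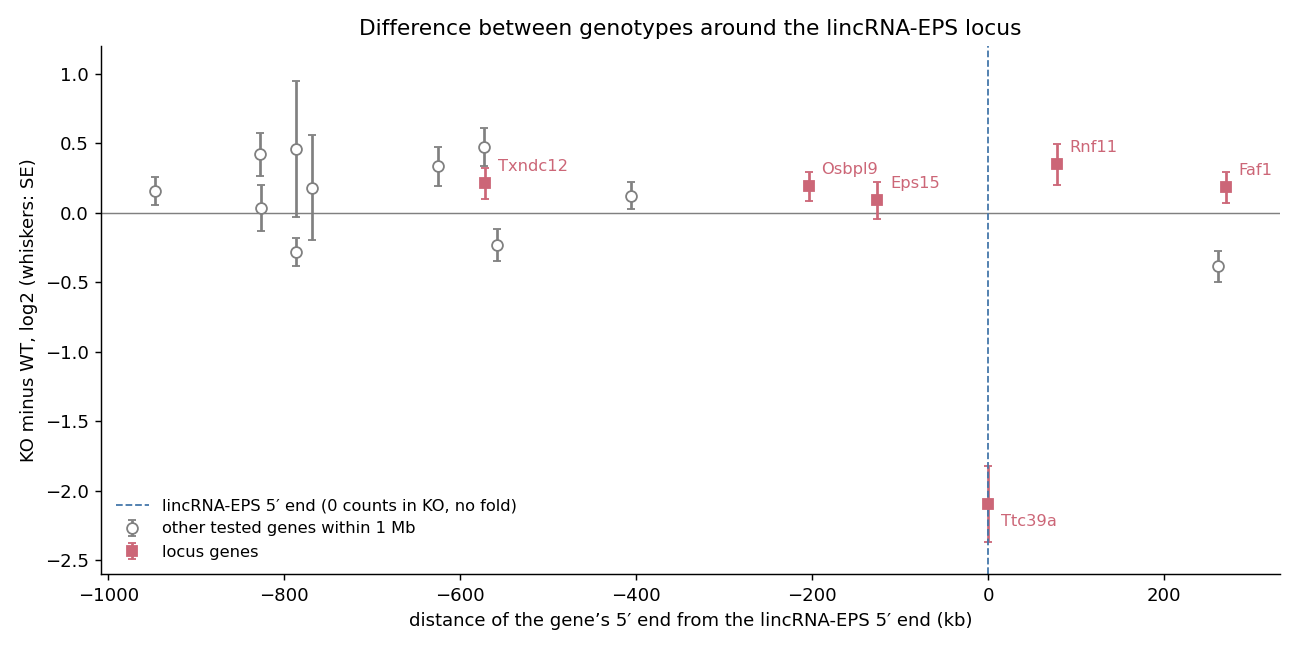
Difference between KO and WT on the log2 scale (vertical axis, whiskers for the SE) against the distance of the 5′ end of each gene from that of lincRNA-EPS in kb (horizontal axis, negative towards *Eps15*), for 6 locus genes (squares) and the 11 other tested genes within 1 Mb (open circles). *Ttc39a*, the nearest gene, was at -2.09, whereas all others lay between -0.38 and 0.47. LincRNA-EPS itself has no fold and is marked by the dashed line.

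The remaining 25 genes of the 1 Mb range did not pass the filter on low counts. The nearest protein-coding gene among them, *4930522H14Rik*, was at 0 counts in all libraries, and *Calr4* had 1 count over the WT and 1 over the KO libraries. The pseudogene *Gm12749*, 28.93 kb away, had 8 counts in WT and 6 in KO. The long noncoding RNA *9630013D21Rik*, chosen after its values were seen, had 5 counts in WT and 22 in KO and lies 245.4 kb away, beside *Cdkn2c*. With no filter on low counts, 23 of the neighbours were tested and 5 again had an unadjusted p under 0.05 in edgeR, now with *9630013D21Rik* and without *Zfyve9*. In that fit, 17.0% of all 24761 genes had an unadjusted p under 0.05.

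Over 13176 tested genes the log2 difference between KO and WT was correlated with transcript GC content (Pearson r = -0.510 across genes, which are not independent replicates). By library, the deviation from the mean of all 6 was most positively related to GC content in WT replicate 2 (r = 0.670 over 8819 genes) and most negatively in KO replicate 3 (r = -0.721). WT replicates 1 and 3 had r of 0.357 and 0.419, and KO replicates 1 and 2 had 0.125 and -0.182. WT replicate 2 and KO replicate 3 were also the lowest and the highest library for *Rnf11*, *Eps15* and *Txndc12*, whose transcripts hold 42.6%, 41.2% and 47.0% GC. *Osbpl9* (45.7%) and *Faf1* (47.2%) had KO replicate 3 as the highest library but not WT replicate 2 as the lowest. The transcripts of lincRNA-EPS (50.4%) and *Ttc39a* (52.5%) had the highest GC content of the members.

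A fit with a GC correction per library left *Ttc39a* at -1.99 on the log2 scale, with corrected levels of 2.22 to 2.90 CPM in WT and 0.567 to 0.756 CPM in KO. The corrected differences were smaller for *Rnf11* (0.14), *Faf1* (0.11), *Osbpl9* (0.068) and *Txndc12* (0.13). For *Eps15* the sign turned to -0.16, with 106.2 to 114.9 CPM in WT and 94.6 to 99.4 CPM in KO. The libraries then did not overlap for 3 of the 7 genes, lincRNA-EPS, *Ttc39a* and *Eps15*, against 32.1% of all genes tested in the same way. Without KO replicate 3 and with no correction, the differences of *Rnf11*, *Faf1*, *Osbpl9* and *Txndc12* were 0.19, 0.075, 0.097 and 0.16, and that of *Eps15* was -0.037.

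**Figure D4:**
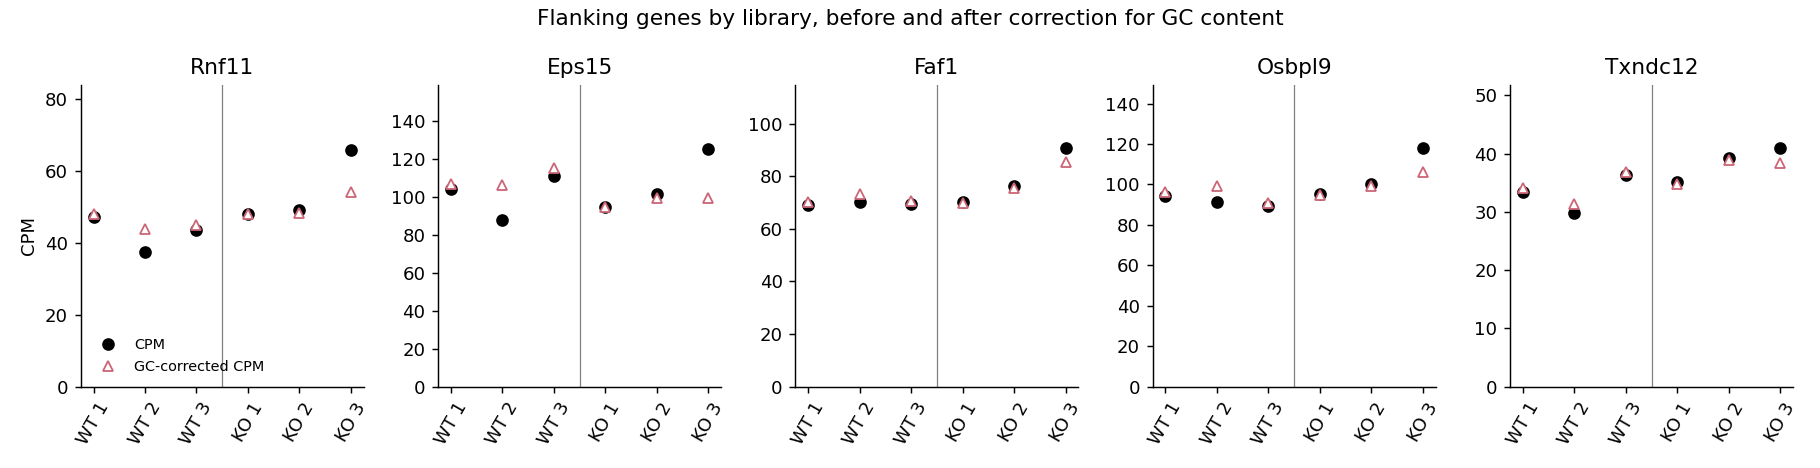
CPM of the 5 flanking genes (vertical axes, from 0) in each library (horizontal axes) as measured (filled circles) and after the GC correction (open triangles), with a line between the WT and KO libraries. The correction raised WT replicate 2 and lowered KO replicate 3, and after it *Eps15* was lower in all KO libraries than in any WT library.

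Among the 5 neighbours at an unadjusted p under 0.05, the sign also went with GC content. Transcripts of *Btf3l4*, *Prpf38a* and *Zfyve9*, higher in KO, hold 39.7%, 39.8% and 46.3% GC, and those of *Cdkn2c* and *Cc2d1b*, lower in KO, hold 58.0% and 56.4%. With the GC correction, 0 of the 11 tested neighbours had an unadjusted p under 0.05 in edgeR, against 25.7% of all genes in that fit. *Cdkn2c* was then at -0.077 (unadjusted p = 0.442) and *Btf3l4* at 0.19 (unadjusted p = 0.0749). Since GC dependence of the libraries coincides in part with genotype, a difference between genotypes that follows GC content and one that arises in preparation cannot be told apart in these data.

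Among tested genes outside the locus, those whose log2 level over the 6 libraries was most like that of lincRNA-EPS were *Ccnd1* (cyclin D1, Pearson r = 0.995), *Cd300lb* (r = 0.988) and *Gm17816* (r = 0.987). For *Ttc39a* these were *Gbp6* (r = 0.996), *H2-Q5* (r = 0.995) and *Nxpe5* (r = 0.994). The values for lincRNA-EPS and *Ttc39a* themselves gave r = 0.976. Such values follow the split into WT and KO, as lincRNA-EPS has the same value of 0 in all KO libraries, and 350 genes exceeded 0.9 for lincRNA-EPS and 528 for *Ttc39a*. *Ccnd1* was at 352.5 ± 7.93 CPM in WT and 307.4 ± 2.98 CPM in KO, a far smaller ratio than that of *Ttc39a*. *H2-Q5* and *Gbp6* belong to families of closely similar genes among which reads may be divided, and their levels were 1.91 ± 0.289 and 1.84 ± 0.117 CPM in WT and 0.766 ± 0.0478 and 1.12 ± 0.0282 CPM in KO.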

How the data were processed

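The 7 genes, the region and the marker lists were chosen with earlier results of these data known. RNA came from 3 WT and 3 KO cultures (Illumina stranded poly(A) libraries). The authors deposited expected counts per gene as RSEM estimates them, and the submitters' processing notes name fastp, HISAT2, StringTie, RSEM and GRCm39; roles and versions are not given in the sources used here. Means that the authors pooled per genotype were not used, and 25.1 to 26.6% of detected genes per library had counts that were not whole. The deposited expected counts were rounded and fitted with edgeR 4.0.16 (R 4.3.3; filterByExpr, TMM scaling, quasi-likelihood test, genotype as the only term, Benjamini-Hochberg adjustment over all 13428 genes). Genes past the limits had an adjusted p under 0.01 and a fold change above 1.3. As a check of the code, the same test was also run on simulated counts, and no value given here comes from them.

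CPM used the TMM-scaled library size. Positions, lengths and GC content came from GENCODE M21 on GRCm38, which holds 51884 of the 57180 identifiers, and promoters from RefSeq (GRCm38.p6, 32851 windows). Intervals are exact Poisson intervals at 95%. The GC correction fitted a spline with 5 degrees of freedom per library. Likeness used log2(CPM + 0.5). The genes named are the 7 members, tested genes within 1 Mb that were past the limits, at an unadjusted p under 0.05 or among the 2 nearest on each side, and the 3 genes most like lincRNA-EPS and *Ttc39a*; others were chosen after their values were seen. Alternatives were DESeq2 1.42.0, limma-voom (limma 3.58.1), other scalings and filters, a minimum of 10 counts in every library, a replicate block, GC correction, and leaving out each library.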

Additional observations from a re-analysis of the deposited data

How the results depend on the processing

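*Ttc39a* kept its direction under all 17 alternatives, between -2.26 and -1.95 on the log2 scale, as did *Rnf11* (0.13 to 0.43), *Faf1* (0.075 to 0.27), *Osbpl9* (0.068 to 0.26) and *Txndc12* (0.13 to 0.28). *Eps15* took the opposite sign in 4 of 17, with GC correction (-0.16), with GC correction and replicate block, without KO replicate 3 (-0.037) and without WT replicate 2 (-0.0030). Without KO replicate 3, *Rnf11* (0.19), *Faf1* (0.075) and *Osbpl9* (0.097) moved by over 1.5 times, and without WT replicate 2 *Txndc12* was at 0.14.

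Over all genes, 1 was past the limits in edgeR, 4 with GC correction and 126 in DESeq2 (54 higher, 72 lower in KO). Leaving out 1 library gave 0 to 2: 0 without WT replicate 2, WT replicate 3 or KO replicate 2, and 2 without KO replicate 1. DESeq2 gave no adjusted p to lincRNA-EPS and *Ttc39a*, whose mean counts of 16.2 and 30.3 lay under the 77.2 that its independent filtering required. Without that filtering, an alternative added after seeing the data, 2 of the 7 members were past the limits, lincRNA-EPS and *Ttc39a*, among 88 of 24756 genes (0.355%). This is no test of them, since they were selected on this contrast.

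Of the 11 neighbours within 1 Mb, 5 had an unadjusted p under 0.05, but 0 with GC correction and 0 with GC correction and replicate block. Over all genes, the shares in these fits were 26.2%, 25.7% and 22.3%. Leaving out 1 library gave 2 to 5: 3 without WT replicate 1, 2 without WT replicate 2 and 3 without WT replicate 3. The share over all genes also moved in these fits, between 11.2% and 33.2%. It was 20.3%, 11.2% and 19.6% without WT replicates 1, 2 and 3. The count was 11 within 5 Mb and 212 on chromosome 4, over more genes. The replicate numbers were used as a block only in alternatives, alone and with GC correction. Same-numbered WT and KO libraries deviated together with r of -0.510, 0.189 and 0.413 (8868 genes), so no consistent pairing by number was seen. These values alone cannot settle whether the cultures were paired, as the libraries also differed in GC dependence. The replicate block gave 1 gene past the limits, 4 neighbours with an unadjusted p under 0.05 (26.5% over all genes) and -2.09 for *Ttc39a*. Added to the GC correction, it took the genes past the limits from 4 to 1. It put no member or neighbour past the limits. WT replicate 2 correlated best with KO replicate 1. Among the members, depth limits lincRNA-EPS and *Ttc39a* most, as they held the fewest counts, 98 and 149 over the WT libraries.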
